A study of Mus musculus with 17 samples.

Results

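The genes described here are the 30 members of a module for cholesterol synthesis, uptake and export. They were taken by name from the table of 48440 genes measured in mouse liver: a row belonged to the module when its gene symbol equalled a listed member. All 30 members were found, and all 30 were among the 14588 genes whose mean normalized count over 17 libraries was at least 10. The members comprise 18 enzymes of sterol synthesis, 5 genes of the SREBP2 control circuit, 4 genes of lipoprotein uptake, esterification and LXR signalling, and 3 sterol exporters. Other genes of the pathway were not analysed here, apart from a wider list of 34 sterol handling genes described further below.

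Polyadenylated RNA from liver was sequenced in 3 groups. TG_2mon comprised 6 libraries from miR-29 transgenic mice aged 2 months (5 male, 1 female). WT_2year comprised 5 libraries from wild-type B6 mice aged 2 years (3 male, 2 female). WT_2mon comprised 6 libraries from wild-type B6 mice aged 2 months (4 male, 2 female). The series title links miR-29, a family of microRNAs, to ageing. Which miR-29 gene the transgene carries, its promoter and the strain of the transgenic mice are not given in the sources used here. There were 2 batches, batch A (10 libraries, TruSeq polyA kit, University of North Carolina) and batch B (7 libraries, NEBNext Ultra II Directional kit, Cornell University, all from males). Batch A holds TG_2mon replicates 1 to 3, WT_2year replicates 1 to 3 and WT_2mon replicates 1 to 4.

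Hepatocytes make cholesterol from acetyl-CoA through the mevalonate pathway, and its enzymes are switched on together by the transcription factor SREBP2. When membranes hold enough sterol, INSIG proteins keep the SCAP and SREBP2 complex in the endoplasmic reticulum and the enzymes' transcription is low. Oxidized sterols activate the nuclear receptor LXR, which raises exporters and the uptake brake MYLIP.

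Sequences bearing on the transgene and on SREBP2 are shown first. The mature miR-29 microRNAs share the seed AGCACCA (bases 2 to 8, in capitals), and a messenger RNA carrying TGGTGCT in its 3′ UTR holds the match to that seed. In RefSeq (build GRCm38.p6) miR-29a-3p lies at chr6:31062673-31062694 (minus strand), miR-29c-3p at chr1:195037600-195037621 (plus strand), and miR-29b-3p both at chr1:195037091-195037113 (plus strand) and at chr6:31063025-31063047 (minus strand). The deposited table lists all 4 miR-29 precursor genes at 0 in all 17 libraries, so the transgene itself could not be checked from the polyadenylated RNA.
miR-29a-3p: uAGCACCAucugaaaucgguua
miR-29b-3p: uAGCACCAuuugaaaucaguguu
miR-29c-3p: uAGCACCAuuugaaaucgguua

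The seed match was present in the annotated 3′ UTR of 5 of 30 members (16.7%), against 15.4% of the 12927 tested genes with a 3′ UTR of at least 30 bases (GENCODE M21, GRCm38). The 5 genes were Hmgcs1, Fdft1, Cyp51, Insig1 and Abcg5. The longer match of 8 bases, with an A after the 7, was in 0 of 30 members and in 3.29% of tested genes. Sc5d, whose 3′ UTR spans 3747 bases, held no match. The 5 sites are shown on the messenger strand with the seed match in capitals. They lie at chr13:119707571-119707600 (plus strand, Hmgcs1), chr14:63146565-63146594 (minus, Fdft1), chr5:4082217-4082246 (minus, Cyp51), chr5:28077188-28077217 (plus, Insig1) and chr17:84658288-84658317 (minus, Abcg5).
Hmgcs1 site: tggatgattttTGGTGCTgaacaatgacat
Fdft1 site: cctcagcagccTGGTGCTggctgggacttg
Cyp51 site: tgttgctggagTGGTGCTgcacacctgtaa
Insig1 site: agggaggttgaTGGTGCTtaacagagatga
Abcg5 site: gtggggcaatgTGGTGCTtggacattgtga

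RefSeq promoters (GRCm38.p6, 250 bases before to 50 after the start) were matched for 24 of 30 members. They were searched on both strands for the SREBP element TCACNCCAC (of which TCACCCCAC is a form), the NF-Y box CCAAT, the Sp1 box GGGCGG and the LXR element DR4. NF-Y and Sp1 are known partners of SREBP2 at sterol genes. CCAAT was present in 14 of 15 synthesis genes and 20 of 24 members, against 42.8% of the 10393 tested genes with a promoter. GGGCGG was also present in 14 of 15 synthesis genes and 20 of 24 members, against 65.8% of tested genes. TCACNCCAC was found only in Hmgcs1, at position -137 from the start, against 1.5% of tested genes. DR4, searched as an exact repeat with no mismatch allowed, was found in 0 of 24 members and 0 of the 10393 tested genes. Over all 32851 promoters the share was 0.0152%. Variant forms of DR4 were not searched, so the members may hold such forms. The promoters shown are those of Hmgcs1, which holds the SREBP element (chr13:119690101-119690400, plus strand), Idi1, the member with the widest range among TG_2mon libraries (chr13:8885356-8885655, plus strand), and Sc5d, the member that passed the test below (chr9:42264251-42264550, minus strand). Capitals mark CCAAT on either strand (ATTGG on the strand shown) and TCACCCCAC. A match of letters is a description of the sequence and not evidence of binding.
Hmgcs1 promoter: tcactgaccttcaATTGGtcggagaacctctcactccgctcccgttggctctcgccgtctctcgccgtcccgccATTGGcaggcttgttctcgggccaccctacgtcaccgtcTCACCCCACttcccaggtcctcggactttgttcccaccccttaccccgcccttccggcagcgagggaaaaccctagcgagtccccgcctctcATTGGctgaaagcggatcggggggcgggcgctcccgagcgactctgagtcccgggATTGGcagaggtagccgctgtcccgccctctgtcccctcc
Idi1 promoter: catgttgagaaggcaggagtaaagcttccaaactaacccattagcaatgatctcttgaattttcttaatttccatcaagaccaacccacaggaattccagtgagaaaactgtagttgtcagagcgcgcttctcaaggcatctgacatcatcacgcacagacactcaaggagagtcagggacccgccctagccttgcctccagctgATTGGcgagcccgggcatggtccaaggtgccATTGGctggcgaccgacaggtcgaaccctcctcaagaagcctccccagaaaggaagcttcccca
Sc5d promoter: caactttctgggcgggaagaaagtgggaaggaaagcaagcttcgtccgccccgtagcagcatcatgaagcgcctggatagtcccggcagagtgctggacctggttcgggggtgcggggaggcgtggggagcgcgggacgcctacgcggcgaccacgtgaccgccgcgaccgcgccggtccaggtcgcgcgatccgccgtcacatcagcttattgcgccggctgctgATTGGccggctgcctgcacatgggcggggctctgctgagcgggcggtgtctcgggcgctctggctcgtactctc

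Values below are normalized counts per gene and library. Each library's values summed to between 28077001 and 44543936, which is not its depth. Hepatocyte markers were high in all 3 groups: the 8 genes of the list summed to 1917600 to 5547300 in TG_2mon, 2597600 to 3939900 in WT_2year and 2841600 to 4336500 in WT_2mon, and no marker was at 0 throughout a group. The libraries are of bulk tissue, so fewer cells of a type and less RNA per cell cannot be told apart. The lowest correlation of a library with the mean of the rest of its group, over log2 values of tested genes, was 0.891, in WT_2mon replicate 5.

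In transgenic liver at 2 months, most sterol synthesis enzymes had lower fitted log2 values than in wild-type liver of the same age. The 6 transgenic libraries disagreed widely. The median fitted change of the enzymes was -0.73, against 0.01 over all genes tested. Fitted log2 fold changes were below 0 for 17 of 18 synthesis enzymes, against 7222 of the 14588 genes tested. The count was 16 of 18 with libraries scaled to equal totals, where Mvk turned positive, and 14 of 18 without TG_2mon replicate 3 or within batch B. Arithmetic means of normalized counts were higher in TG_2mon than in WT_2mon for Acat2, Mvk, Mvd, Sqle, Lss and Hsd17b7. They were lower for the other synthesis enzymes. Exporters and the HDL receptor Scarb1 had fitted values above 0. One enzyme passed the test: Sc5d fell in TG_2mon. With limma and Benjamini-Hochberg adjustment over all 14588 genes, 1 of 30 members was called, against 6.71% of all genes tested (979 genes). By direction, 0 members were called higher against 2.89% of all genes (421), and 1 lower against 3.83% (558). At an unadjusted p under 0.05, 2 of 30 members were higher, against 10.3% of all genes tested, and 7 lower, against 10.9%. The authors' deposited table calls 3 members, Sc5d lower and Abca1 and Scarb1 higher, against 14.1% of the 15714 genes it lists. With libraries scaled to equal totals the split over all genes was 513 higher and 401 lower, and the median of all genes moved to 0.13.

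**Figure D1:**
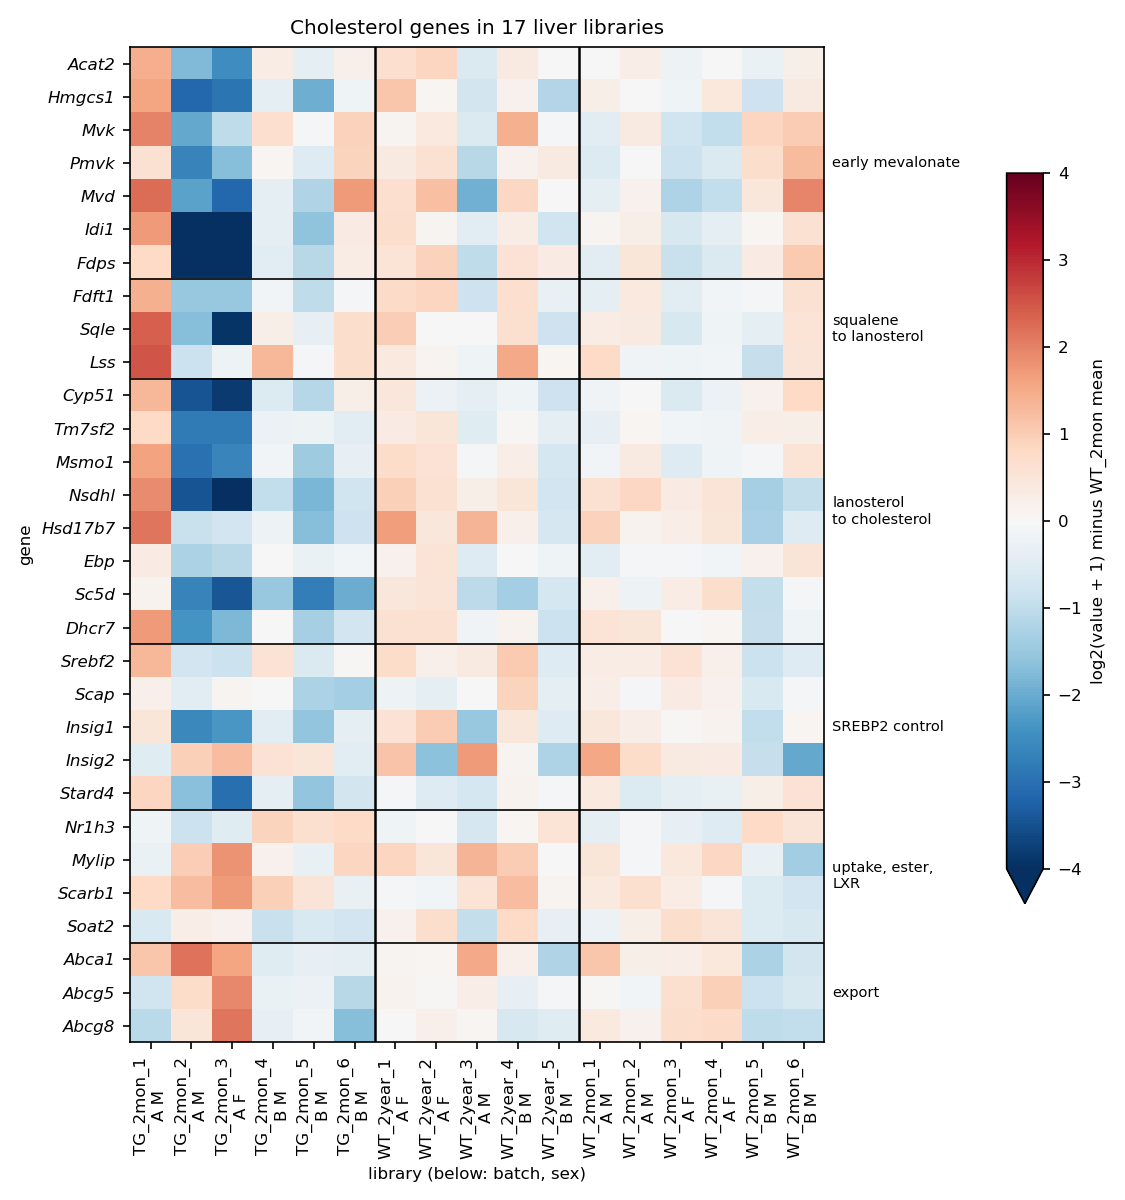
Rows are the 30 genes by role, columns the 17 libraries with batch and sex, and colour is log2(normalized count + 1) minus the WT_2mon mean of that gene (differences below the scale share the darkest blue). Synthesis enzymes are red in TG_2mon replicate 1 and blue in replicates 2 and 3, and WT libraries lie closer to 0.

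Sc5d encodes sterol-C5-desaturase, a late step in cholesterol synthesis, and lies at chr9:42251595-42264256 on the minus strand (GRCm38). It had 16539.9, 2320.2, 1395, 5255, 2194 and 3791 normalized counts in TG_2mon replicates 1 to 6, against 17130.1, 12990.3, 18553, 24175, 7711 and 14514 in WT_2mon replicates 1 to 6. Apart from replicate 1, every TG_2mon library lay below every WT_2mon library, so the groups overlapped through that library alone. The means were 5249 ± 5699 in TG_2mon and 15846 ± 5558 in WT_2mon (SD, n = 6 each), a log2 fold change of -1.93 ± 0.49 (SE) with a limma adjusted p of 0.0274. The authors' deposited table gives -1.65 with an adjusted p of 0.00659 for Sc5d. The fitted Sc5d value was negative under all 31 alternatives run, between -2.41 and -1.35. The Sc5d call was lost when WT_2mon replicate 1 (limma adjusted p = 0.0582), 4 (0.0532) or 6 (0.0715) was left out. It was also lost without TG_2mon replicate 2 (0.0713), 3 (0.0878) or 5 (0.0594). Batch A alone (-2.23, adjusted p = 0.161) and batch B alone (-1.59, adjusted p = 0.115) lost it too. So did males only (-1.46, adjusted p = 0.106) and quantile normalization (-1.71, adjusted p = 0.0560).

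The 7 early mevalonate genes, which carry acetyl-CoA to farnesyl diphosphate, all had fitted values below 0 in TG_2mon (median -0.73); none passed the test, and 2 had an unadjusted p under 0.05. Hmgcs1, the synthase that condenses acetyl-CoA units into HMG-CoA, had 25761, 978, 1146, 6554, 2219 and 7613 normalized counts in TG_2mon replicates 1 to 6, against 4907 to 11564 in WT_2mon. Replicate 1 was above, and replicates 2, 3 and 5 below, every WT_2mon library. The fitted Hmgcs1 change was -1.16 ± 0.67 (limma adjusted p = 0.346). Idi1, the isomerase that makes dimethylallyl diphosphate, had 25686, 329, 215, 6166, 2600.3 and 9997 in TG_2mon replicates 1 to 6, against 5094 to 12152 in WT_2mon, a fitted change of -1.83 ± 0.87 (adjusted p = 0.235). Its highest TG_2mon value was 119.6-fold its lowest, against 2.39-fold in WT_2mon. Fdps, farnesyl diphosphate synthase, had 18902, 385, 338, 7965, 5023 and 13536 in TG_2mon replicates 1 to 6, against 5947 to 22786 in WT_2mon. The Fdps values of replicates 2 and 3 lay more than 10-fold under the lowest WT_2mon value, and the fitted change was -1.99 ± 0.79 (adjusted p = 0.150).

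The other 4 early genes also had their lowest values of all 17 libraries in TG_2mon replicates 2 and 3. Acat2, a thiolase, had 498 to 7615 normalized counts in TG_2mon and 2299 to 3351 in WT_2mon. Mouse Acat2 has a close relative, Acat3, and the sources used here do not say how reads were divided between such copies. The mevalonate kinases and the decarboxylase follow: Mvk had 170.5 to 2809 in TG_2mon and 356 to 1415 in WT_2mon. Pmvk had 392 to 4665 in TG_2mon and 1376 to 6126 in WT_2mon, and Mvd had 72.2 to 3086 in TG_2mon and 274 to 2535 in WT_2mon. In each of these 4 genes the TG_2mon range extended below the WT_2mon range, and adjusted p was between 0.411 and 0.920.

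Among the 3 genes from squalene to lanosterol, none passed the test or had an unadjusted p under 0.05, and the median fitted change was -0.50. Sqle, squalene epoxidase, had 11836, 695, 147, 2613, 1777 and 3628 normalized counts in TG_2mon replicates 1 to 6, against 1428 to 3251 in WT_2mon. Its highest TG_2mon library stood 80.4-fold above its lowest, against 2.28-fold in WT_2mon, and the fitted change was -0.60 ± 0.69 (limma adjusted p = 0.682). Fdft1, squalene synthase, had 1435 to 11132 in TG_2mon and 3001 to 6319 in WT_2mon. Lss, lanosterol synthase, was the only synthesis enzyme with a fitted value above 0 (0.51 ± 0.48, adjusted p = 0.606), with 639 to 6648 in TG_2mon and 616 to 2045 in WT_2mon.

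The 8 genes from lanosterol to cholesterol all had fitted values below 0 (median -1.05), and Sc5d alone was called. Cyp51, the lanosterol demethylase, had 15689.5, 572, 436, 4284, 2853 and 7318 normalized counts in TG_2mon replicates 1 to 6, against 4210.3 to 10761 in WT_2mon (fitted change -1.40 ± 0.66, limma adjusted p = 0.233). Dhcr7, the last reductase of the Kandutsch-Russell branch, had 8591, 504, 770.0, 2649, 1054 and 1575 in TG_2mon replicates 1 to 6, against 1387 to 3920 in WT_2mon (-0.72 ± 0.52, adjusted p = 0.479). Replicate 1 was again above the WT_2mon range for both genes, and replicates 2, 3 and 5 were below it. Tm7sf2 and Nsdhl, a sterol reductase and a decarboxylating dehydrogenase, had fitted changes of -1.06 ± 0.50 (adjusted p = 0.232) and -1.50 ± 0.74 (adjusted p = 0.261). Msmo1, the methyl oxidase, had -1.04 ± 0.59 (adjusted p = 0.339). Hsd17b7, a keto-reductase, and Ebp, the isomerase, had the smallest fitted changes of this branch, -0.20 ± 0.43 and -0.44 ± 0.26, and Ebp also had the narrowest TG_2mon range of all synthesis enzymes, 3182 to 9614 normalized counts, against 5608 to 10808 in WT_2mon.

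**Figure D2:**
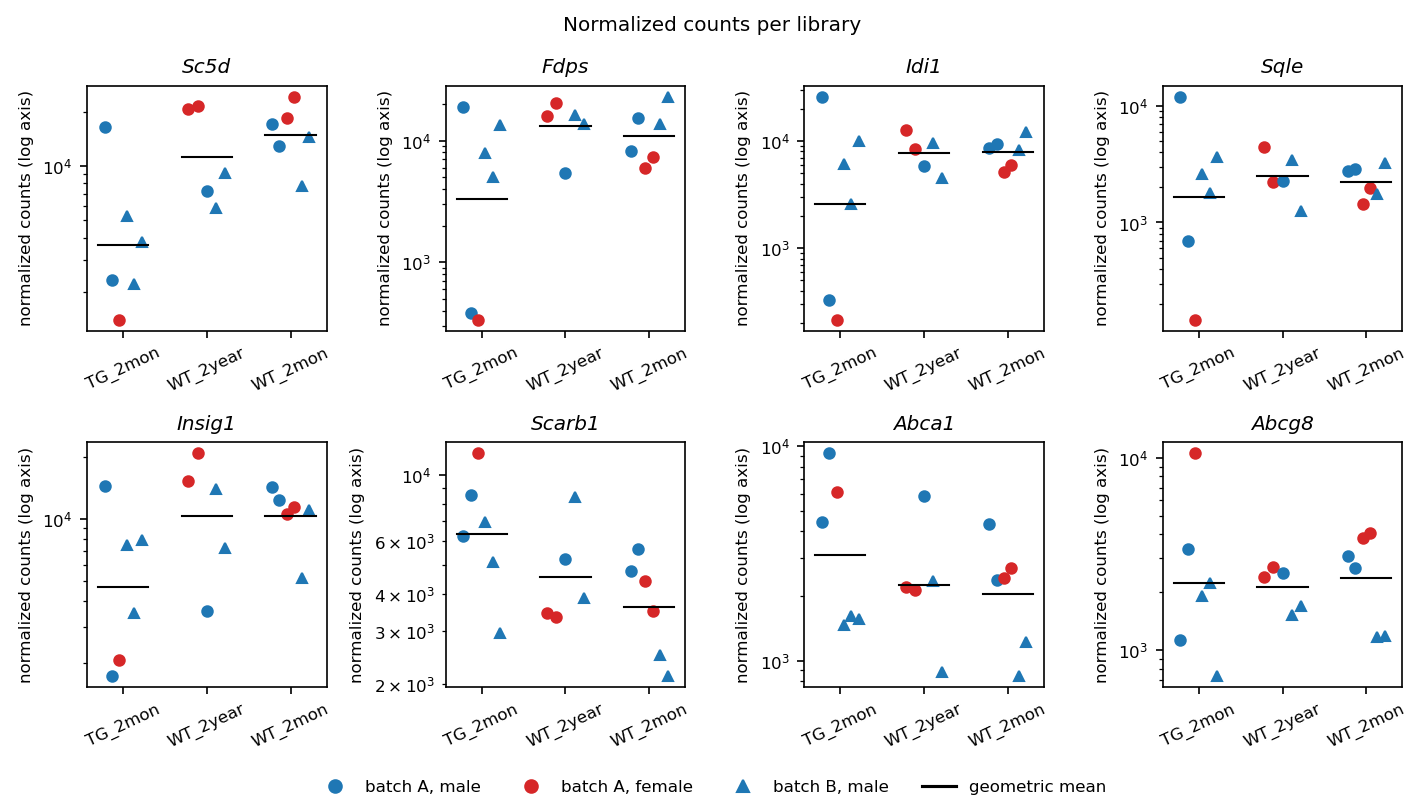
Each point is the normalized count of a gene in a library (log axis), with colour for sex, shape for batch and a line at the geometric mean, for 8 genes in TG_2mon, WT_2year and WT_2mon. For Fdps and Idi1 the lowest TG_2mon values, 338 and 215, lie far under the wild-type libraries, and for Sc5d only TG_2mon replicate 1, at 16539.9, reaches the WT_2mon points.

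None of the SREBP2 control genes passed the test, 2 of 5 had an unadjusted p under 0.05, and the median fitted change of the 5 was -0.40. Srebf2, which encodes SREBP2, had 2789.9, 658, 610.1, 1678, 748 and 1160.2 normalized counts in TG_2mon replicates 1 to 6, against 1372, 1381, 1682, 1284, 617 and 776 in WT_2mon replicates 1 to 6. The fitted Srebf2 change was -0.0046 ± 0.38 (limma adjusted p = 0.996), and only replicate 1 and replicate 3 of TG_2mon lay outside the WT_2mon range, on opposite sides. Scap, the sterol-sensing escort of SREBP2, had 3472, 2252, 3207, 3001, 1247 and 1155 in TG_2mon replicates 1 to 6, against 3632, 2818, 3765, 3384, 1939 and 2832 in WT_2mon replicates 1 to 6 (-0.40 ± 0.30, adjusted p = 0.487).

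Insig1 and Stard4 were high in TG_2mon replicate 1 and low in replicates 2 and 3, like most of the enzymes, and Insig2 was the reverse. Insig1, itself a target of SREBP2, had 14533, 1727, 2073, 7469, 3489 and 7915 normalized counts in TG_2mon replicates 1 to 6, against 14243, 12319, 10606, 11389, 5193 and 11003 in WT_2mon replicates 1 to 6. TG_2mon replicates 2, 3 and 5 were below the lowest WT_2mon library, and the fitted change was -1.12 ± 0.53 (limma adjusted p = 0.233). Stard4, a carrier of sterol between membranes, had 5180.3, 888, 353, 2167, 948 and 1704 in TG_2mon replicates 1 to 6, against 3782, 1949.6, 2217, 2304, 3364 and 4303 in WT_2mon replicates 1 to 6 (-1.24 ± 0.43, adjusted p = 0.0961). All TG_2mon libraries other than replicate 1 and replicate 4 lay below the WT_2mon range of Stard4. Insig2, the second INSIG gene, had 3702, 10121, 12174, 7655, 7249.8 and 3796 in TG_2mon replicates 1 to 6, against 15239, 8596, 6639.5, 6497, 2743 and 1247 in WT_2mon replicates 1 to 6 (0.53 ± 0.53, adjusted p = 0.627). For Insig2, TG_2mon replicates 2 and 3 were the highest of their group and replicate 1 the lowest.

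The 4 genes of uptake, esterification and LXR had a median fitted change of 0.34; 0 were called and 1 had an unadjusted p under 0.05. Nr1h3, which encodes LXR alpha, had 2766, 1696, 2211, 5705, 4881 and 5418 normalized counts in TG_2mon replicates 1 to 6, against 2366, 2964, 2458, 2179.8, 5393 and 4445 in WT_2mon replicates 1 to 6 (-0.02 ± 0.19, limma adjusted p = 0.972). Batch B libraries were above batch A libraries in both groups. Mylip, the ubiquitin ligase that marks lipoprotein receptors for breakdown, had 154, 373, 659.7, 209.6, 153 and 337 in TG_2mon replicates 1 to 6, against 262, 183, 253, 332, 152 and 70.4 in WT_2mon replicates 1 to 6 (0.70 ± 0.35, adjusted p = 0.264). The 3 TG_2mon libraries above the WT_2mon range of Mylip were replicates 2, 3 and 6.

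Scarb1, the receptor SR-BI that takes cholesteryl ester from HDL, had 6231, 8539, 11793, 6957, 5125 and 2962 normalized counts in TG_2mon replicates 1 to 6, against 4775, 5649, 4409, 3507, 2488 and 2123 in WT_2mon replicates 1 to 6. Replicates 1 to 4 of TG_2mon were above every WT_2mon library. The means were 6934 ± 3024 in TG_2mon and 3825 ± 1368 in WT_2mon (SD, n = 6 each), a fitted change of 0.87 ± 0.31 with a limma adjusted p of 0.107. The authors' deposited table calls Scarb1 higher (1.02, adjusted p = 0.00151), and the limma call was also made without WT_2year replicate 4 (0.92, adjusted p = 0.0285), a fit in which 8.99% of all genes tested were called. Soat2, which esterifies cholesterol for storage and secretion, had 673, 1228, 1161, 558, 679 and 598 in TG_2mon replicates 1 to 6, against 868, 1212, 1666, 1456, 698 and 655 in WT_2mon replicates 1 to 6 (-0.27 ± 0.28, adjusted p = 0.640).

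The 3 exporters had fitted values above 0 in TG_2mon (median 0.26); 0 were called and 1 had an unadjusted p under 0.05. Abca1, which loads cholesterol onto nascent HDL, had 4415, 9244, 6090.1, 1457, 1604 and 1563 normalized counts in TG_2mon replicates 1 to 6, against 4340.3, 2379, 2422, 2710.2, 847 and 1225 in WT_2mon replicates 1 to 6. The 3 TG_2mon libraries of batch A were above all WT_2mon libraries, and the 3 of batch B were above both WT_2mon libraries of batch B. The fitted Abca1 change was 0.82 ± 0.28 with a limma adjusted p of 0.0953. The authors' deposited table calls Abca1 higher (0.89, adjusted p = 0.00578), and the limma call was made without WT_2year replicate 4 (0.86, adjusted p = 0.0343).

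Abcg5 and Abcg8 encode the paired transporter that secretes sterol into bile. The genes overlap on opposite strands over 6710 bases (chr17:84676302-84683011, GRCm38), and since the strand setting of the counting is not given in the sources used here, reads from that stretch cannot be told apart. Abcg5 had 996, 2874, 6572, 1439, 1469 and 795 normalized counts in TG_2mon replicates 1 to 6, against 1765, 1604, 2691, 3323, 943 and 1098 in WT_2mon replicates 1 to 6 (0.26 ± 0.32, limma adjusted p = 0.699). Abcg8 had 1127, 3343, 10534, 1903, 2220.4 and 734 in TG_2mon replicates 1 to 6, against 3082, 2681, 3840.0, 4075, 1164 and 1188 in WT_2mon replicates 1 to 6 (0.17 ± 0.37, adjusted p = 0.841). In both genes TG_2mon replicate 3, the female, was above all WT_2mon libraries, and replicate 6 was below all of them, as was replicate 1 for Abcg8. Without TG_2mon replicate 3 the fitted changes were -0.06 for Abcg5 and -0.22 for Abcg8.

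**Figure D3:**
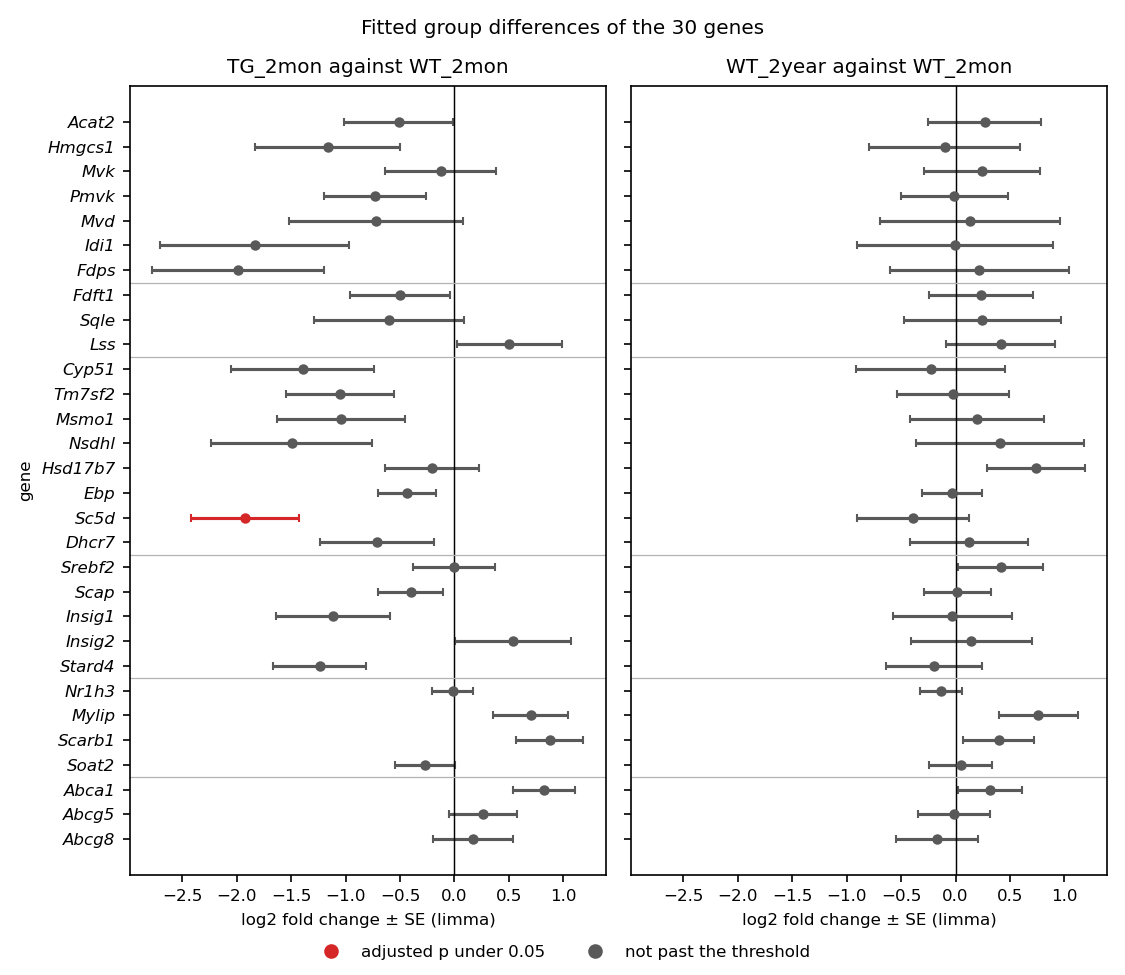
Points are limma log2 fold changes with bars of 1 SE for the 30 genes, TG_2mon against WT_2mon (left) and WT_2year against WT_2mon (right); red marks adjusted p under 0.05. Sc5d, at -1.93, is the single red point.

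The transgenic libraries did not share a level of sterol synthesis. TG_2mon replicate 1 was the highest of all 17 libraries for 14 of 18 synthesis enzymes. Replicates 2 and 3 were each below all 11 wild-type libraries for 16 of 18, replicate 5 for 10, and replicates 4 and 6 for 1 each. The share of all genes tested that lay outside the wild-type range in each library was not counted, so these counts only describe the enzymes. The geometric mean level of the enzymes relative to WT_2mon was 2.79-fold in TG_2mon replicate 1, 0.175-fold in replicate 2, 0.161-fold in replicate 3, 0.902-fold in replicate 4, 0.483-fold in replicate 5 and 1.02-fold in replicate 6. The same measure was 0.722-fold to 1.57-fold in WT_2year and 0.781-fold to 1.39-fold in WT_2mon. As a share of all normalized counts the 18 enzymes took 0.584% in TG_2mon replicate 1, 0.0447% in replicate 2 and 0.0511% in replicate 3.

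The spread between libraries was larger in TG_2mon for synthesis enzymes than for other genes. The median SD of log2 values over the 18 enzymes was 1.48 in TG_2mon, 0.67 in WT_2year and 0.50 in WT_2mon. Over all genes tested it was 0.66 in TG_2mon, 0.54 in WT_2year and 0.65 in WT_2mon. The TG_2mon SD exceeded the WT_2mon SD in 18 of 18 enzymes, against 50.3% of all genes tested, and exceeded 1 in 17 of 18, against 24.6% of all genes tested. These measures of spread were chosen after the values were seen and carry no test.

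TG_2mon replicates 1 and 2, both male libraries of batch A, stood far apart, and replicate 3, the lowest in sterol synthesis, was the only female of the group. Between replicates 1 and 2 the median absolute log2 difference was 4.06 over the synthesis enzymes, 1.36 over the other 12 members and 0.476 over all genes tested. Between the 2 male WT_2mon libraries of batch A the same medians were 0.407, 0.346 and 0.465. Replicate 1 had 78.0-fold as much Idi1, 49.1-fold as much Fdps and 41.4-fold as much Nsdhl as replicate 2. Insig2, Mylip, Scarb1, Soat2, Abca1, Abcg5 and Abcg8 ran the other way, with log2 differences of -1.57 (Abcg8) to -0.45 (Scarb1), while Srebf2 ran with the enzymes (2.08).

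**Figure D4:**
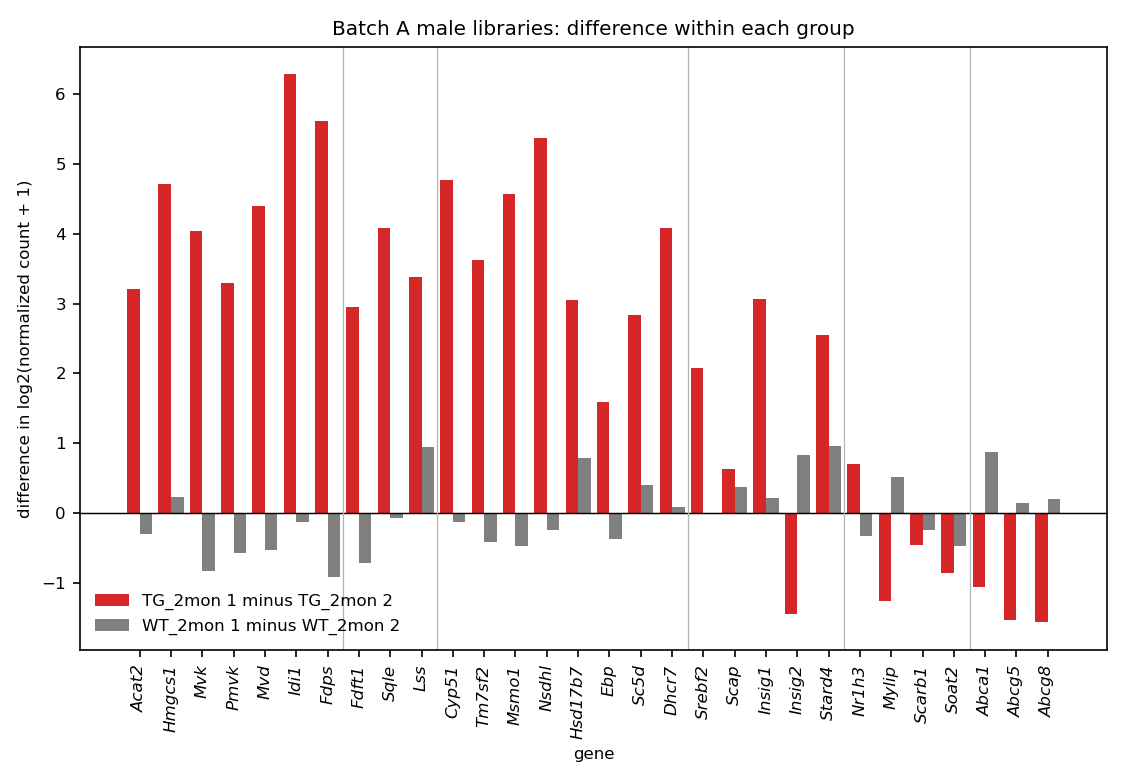
Bars give the difference in log2(normalized count + 1) between the 2 male batch A libraries of TG_2mon (red) and of WT_2mon (grey) for each of the 30 genes. All 18 synthesis enzymes are higher in TG_2mon replicate 1 than in replicate 2, and the 3 exporters are lower.

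Leaving out TG_2mon replicate 1 raised the count of called members to 9, all lower in TG_2mon: Cyp51 (-2.05, limma adjusted p = 0.0237), Fdps (-2.74), Hmgcs1 (-1.82), Idi1 (-2.67), Msmo1 (-1.66), Nsdhl (-2.20), Sc5d (-2.41), Stard4 (-1.70) and Tm7sf2 (-1.54). In that fit 7.54% of all genes tested were called (1100 genes), 4.58% lower. The median over synthesis enzymes was then -1.36, whereas without TG_2mon replicate 2 it was -0.38. It was -1.22 within batch A and -0.58 within batch B. With a term for the transgene by batch, 0 of 30 members were called and 0 had an unadjusted p under 0.05, against 0.0411% of all genes called and 10.1% with an unadjusted p under 0.05. With a term for the transgene by sex, which rests on the single female TG_2mon library, 0 of 30 members were called against 2.41% of all genes, and 12 of 30 had an unadjusted p under 0.05 against 16.4% of all genes. The smallest adjusted p of that term was 0.0677, for Sqle.

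Other cell markers differed between the same libraries. The 10 neutrophil markers summed to 653.8, 420.6, 6057, 7795, 48269 and 24198 normalized counts in TG_2mon replicates 1 to 6, against 93.6 to 2162 in WT_2year and 28.01 to 497.8 in WT_2mon. All 9 tested had fitted values above 0 in TG_2mon against WT_2mon, and 8 were called higher, against 2.89% of all genes tested. The sum of the 8 hepatocyte markers was 5547300 in TG_2mon replicate 1, 3509400 in replicate 2 and 1917600 in replicate 3, and Serpina1c was the hepatocyte marker called lower (-1.80, limma adjusted p = 0.0145), though near-identical Serpina1 copies share reads with it. In other lists, Marco (1 of 8 Kupffer and macrophage markers), Slc4a1 (erythroid) and Stab2 (1 of 6 endothelial) were among those called higher. Spp1 (1 of 5 cholangiocyte markers tested) was called lower. Fitted values were above 0 for 6 of 8 Kupffer and macrophage, 2 of 3 erythroid, 5 of 6 endothelial and 2 of 5 cholangiocyte markers tested. The erythroid sum had a median of 1781 in TG_2mon and 3118 in WT_2mon. The neutrophil sums of TG_2mon replicate 1, the highest in sterol synthesis, and replicate 2, the second lowest, were both below those of replicates 3 to 6, while replicate 3, the lowest in sterol synthesis, had 6057. The part of other cell types in the sterol gene values was not tested.

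Age left the module without a called member. In WT_2year livers 0 of 30 members were called against WT_2mon, with 0.144% of all genes tested called (21 genes, 0.096% higher and 0.048% lower), and 0 of 30 had an unadjusted p under 0.05, against 8.73% of all genes. The authors' deposited table also calls 0 of 30 members, against 1.77% of the 15814 genes it lists. Since the limma fit shared an estimate of spread among the 3 groups, the wide TG_2mon spread of many members entered its age errors. The SE of the age change was 0.903 for Idi1 and 0.294 for Abca1, against 0.329 and 0.318 in the authors' table. That table gives an unadjusted p of 0.0124 for Hsd17b7 and 0.0172 for Mylip. The median fitted change was 0.16 over the synthesis enzymes and -0.003 over all genes tested. Sc5d had 20680.2, 21528, 7273, 5837 and 9169.8 normalized counts in WT_2year replicates 1 to 5, with a fitted change of -0.40 ± 0.51 against WT_2mon (95% interval -1.48 to 0.69, limma adjusted p = 0.804). The largest fitted values were those of Mylip (0.76 ± 0.36, adjusted p = 0.571) and Hsd17b7 (0.74 ± 0.45, adjusted p = 0.626). Mylip had 342, 263, 484, 381 and 187 in WT_2year replicates 1 to 5, against 70.4 to 332 in WT_2mon, so the groups overlapped.

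The other regulators and carriers overlapped between ages as well. Srebf2 had 1869.6, 1282, 1441, 2329.6 and 783 normalized counts in WT_2year replicates 1 to 5 (fitted change 0.41 ± 0.39). Scap had 2624, 2261, 2995, 5493 and 2339.8 (0.02 ± 0.31), and Stard4 had 2794, 2013, 1754, 3145 and 2705 (-0.20 ± 0.44). Their limma adjusted p lay between 0.734 and 0.988. Insig1 had 15348, 20824, 3585, 13983 and 7197 in WT_2year replicates 1 to 5 (-0.03 ± 0.55), and Insig2 had 11381, 1678, 16815, 5578 and 2203 (0.15 ± 0.55). Both INSIG genes spanned the whole WT_2mon range or nearly so, with a 5.81-fold range of Insig1 in WT_2year against 2.74-fold in WT_2mon. Nr1h3 had 2778, 3063, 1944, 3270.3 and 4503 in WT_2year replicates 1 to 5 (-0.13 ± 0.19). Scarb1 had 3451, 3339, 5221, 8437 and 3864 (0.40 ± 0.32), and Soat2 had 1147, 1664, 527, 1802 and 826 (0.05 ± 0.29). For Scarb1, WT_2year replicate 4 was the only library of its group above all WT_2mon libraries.

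Exporters in old liver lay within or near the young range. Abca1 had 2211, 2137, 5859, 2347 and 881 normalized counts in WT_2year replicates 1 to 5, with a fitted change of 0.31 ± 0.29 (limma adjusted p = 0.734). Abcg5 had 1885, 1779, 2059, 1379 and 1615 (-0.01 ± 0.33) and Abcg8 had 2387, 2709, 2527, 1528 and 1700.2 (-0.17 ± 0.38). The Abcg5 range of 1.49-fold in WT_2year compared with 3.52-fold in WT_2mon and 8.26-fold in TG_2mon.

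The difference with age was also compared between the sexes, and no member passed the test of that interaction. For Fdps the female libraries, all of batch A, had 15838 and 20553 normalized counts in WT_2year and 5947 and 7283 in WT_2mon. The male libraries of batch A had 5454 in WT_2year and 8168 and 15399.9 in WT_2mon. Those of batch B had 16315 and 13631 in WT_2year and 13765 and 22786 in WT_2mon. With only 1 male WT_2year library in batch A, an age difference by sex cannot be fully told apart from one by batch. The age effect in males minus that in females was -3.12 ± 1.37 log2 units for Fdps (limma adjusted p = 0.197) and -3.69 ± 1.29 for Mvd (adjusted p = 0.129). For Abcg5 it was 1.54 ± 0.49, with the smallest adjusted p among members, 0.111. For this interaction 0 of 30 members were called, against 0.048% of all genes tested, and 12 of 30 had an unadjusted p under 0.05, against 22.6% of all genes. With a term for age by batch 0 of 30 members and 0% of all genes tested were called, and 3 of 30 members (10%) had an unadjusted p under 0.05, against 15.9% of all genes.

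Set against old wild-type liver, young transgenic liver showed 0 of 30 members called, with 2.55% of all genes tested called (372 genes, 0.713% higher and 1.84% lower). At an unadjusted p under 0.05, 0 of 30 members were higher, against 6.5% of all genes tested, and 4 lower, against 8.82%. Both comparisons of TG_2mon use the same transgenic libraries, and in this one genotype and age cannot be told apart. Sc5d averaged 5249 ± 5699 in TG_2mon (SD, n = 6) and 12898 ± 7590.1 in WT_2year (SD, n = 5), a fitted change of -1.53 ± 0.52 (limma adjusted p = 0.148). Fdps (-2.21 ± 0.83, adjusted p = 0.203), Nsdhl (-1.91 ± 0.78, adjusted p = 0.251) and Stard4 (-1.04 ± 0.45, adjusted p = 0.278) were the others. The median over synthesis enzymes was -0.90. Without TG_2mon replicate 1, 5 members were called lower, Fdps, Msmo1, Nsdhl, Sc5d and Stard4, and in that fit 437 of all genes tested were called, 2.21% lower.

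A wider list of 34 sterol handling genes, all tested, was read from the same fits. It included the proteases that cut SREBPs, lysosomal cholesterol exporters, oxysterol-binding proteins and branches of the mevalonate pathway to other isoprenoids. In TG_2mon against WT_2mon, 1 was called higher, against 2.89% of all genes tested, and 0 lower, against 3.83%. The median fitted change was 0.02. The called gene was Vldlr, a receptor for triglyceride-rich lipoproteins. It had 387 ± 263 normalized counts in TG_2mon and 146 ± 189 in WT_2mon (SD, n = 6 each). Its fitted log2 change was 2.80 ± 0.50 (limma adjusted p = 0.00244). That fit used log2 values with batch and sex as covariates, so 2.80 is not the ratio of these means. With age 0 of 34 were called, against 0.144% of all genes tested. In TG_2mon against WT_2year, Nceh1, which hydrolyses cholesteryl ester, was called lower (369 ± 131 in TG_2mon and 968 ± 707 in WT_2year, -1.20 ± 0.30, adjusted p = 0.0397). Nceh1 was the only gene of the list called there, against 2.55% of all genes tested.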

How the data were processed

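The submitters' processing notes name STAR 2.5.3a, Salmon 0.6.0, DESeq2 and the mm10 build, but neither what each tool did nor the annotation release and strand setting. The authors deposited a normalized signal per gene and library, named DESeq2 normalized counts. They also deposited tables of their own comparisons, which per the file headers hold a log2 fold change, a test score and a p-value for each gene and served as an alternative. Between 9.73% and 36.4% of a library's low values lay within 0.1 of a whole step, so whole reads were not recovered and sequencing depth is unknown.

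Genes with a mean of at least 10 were fitted with limma 3.58.1 (R 4.3.3) on log2(value + 1), with batch and sex as covariates and a mean-variance trend. The 3 groups shared an estimate of spread. Calls needed an adjusted p under 0.05 (two-sided, Benjamini-Hochberg over all 14588 genes), and fold changes on this scale understate those of low genes. The procedure was tested on simulated data with the same spread in all groups and changes placed in genes of below-median spread. That test did not cover a spread wider in TG_2mon, as seen for the synthesis enzymes. Of 48440 gene IDs, 48058 were found in GENCODE M21. Nothing in the labels states that libraries came from separate animals, so p-values reflect the variation among libraries. Members and lists were chosen with earlier results of these data known. Called members and a set of regulators and carriers are given in full, and other enzymes by ranges and examples. Alternatives covered the pseudocount, the filter, scaling, covariates, the replicate block, sex, batch, weights and leaving out each library. Not every marker gene called is reported here.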

Additional observations from a re-analysis of the deposited data

Results flagged for a closer look

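In each of 90 combinations of a gene and a group, the gap between the highest or lowest library and its nearest neighbour was compared with the range of the group by Dixon's criterion, on log2(normalized count + 1). Chance flags about 1 in 20 such groups, and 2 stood out here. Pmvk, phosphomevalonate kinase, had 1162 normalized counts in WT_2year replicate 3, and the next library of its group had 2842, a gap of 0.745 of the range in log2 units. Insig1 had 5193 normalized counts in WT_2mon replicate 5, and the next library of its group had 10606, a gap of 0.708 of the range in log2 units.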

How the results depend on the processing

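Members called in TG_2mon against WT_2mon numbered 1 as reported, 0 with quantile normalization, 0 in males only, 0 in batch A only, 0 in batch B only and 3 in the authors' deposited table (Sc5d, Abca1 and Scarb1). Of all genes tested, quantile normalization called 895, males only 737, batch A only 495 and batch B only 263, against 979 as reported. Leaving out 1 library at a time gave 0 to 9 members, with 9 without TG_2mon replicate 1 and 3 without WT_2year replicate 4. Those fits called 653 to 1311 of all genes tested. In TG_2mon against WT_2year the count of members was 0, 1 with array weights (Sc5d) and 0 to 5 when a library was left out. With age it was 0 under every alternative run, and leaving out a library gave 0 to 0. The seed match of 8 bases was in 0 members. With the replicate number as a block the counts were 1 for TG_2mon against WT_2mon, 0 with age and 0 for TG_2mon against WT_2year. The block changed no member's call. Of 16 same-numbered pairs, 7 correlated above 0.1. Differently numbered pairs were not compared, so these correlations cannot decide whether the number pairs the libraries.

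The median change over synthesis enzymes in TG_2mon against WT_2mon stayed below 0 in all 31 alternatives (-1.36 to -0.38), and with age it lay between -0.35 and 0.42, below 0 in 4 of 31. Over all genes tested, 979 were called in TG_2mon against WT_2mon, 421 without covariates, 796 with the block, 495 in batch A only and 263 in batch B only. For TG_2mon against WT_2year 372 were called, 139 without covariates, 247 with the block, 175 in males only, 175 in batch A only, 45 in batch B only, 733 with array weights and 161 to 525 when a library was left out. With age 21 were called, 9 at a mean of at least 50, 11 with the block, 41 in males only, 1 in batch A only, 0 in batch B only, 60 with array weights and 9 to 37 when a library was left out. The causes of these differences were not tested. Unknown depth limits what can be said of low values.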
